A study of Homo sapiens with 6 samples.

Results

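The mitochondrial ribosomal protein genes are the 79 rows of the deposited table, out of 30726 gene rows, whose symbol is MRPL or MRPS followed by a number and at most 1 letter, together with DAP3. By symbol 49 belong to the large subunit (MRPL) and 30 to the small subunit (MRPS and DAP3). Pseudogenes and antisense RNAs were left out, and all 79 genes passed the filter on low values. RNA from polysome fractions was sequenced from 3 human breast cancer cell lines at 1% oxygen for 8 h (hypoxia) or at 21% oxygen (normoxia). SUM1315 is a triple-negative line, SKBR3 a luminal line with HER2, and T47D is of the luminal A type. All are labelled wild type, and each gave 1 library per oxygen level. All cells received cycloheximide before lysis, which holds ribosomes on their mRNA. The series asks how hypoxia changes the translation of transcripts. RNA of whole lysates was not analysed here, so that amount of mRNA and ribosome loading cannot be told apart, nor can a change in all cells and a change in some of them.

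The mitochondrial ribosome translates the few mRNAs encoded in mitochondrial DNA, all for subunits of the respiratory chain and of ATP synthase. Its rRNAs come from mitochondrial DNA, whereas its proteins are encoded in the nucleus, translated on cytosolic ribosomes and imported. Some of these proteins have bacterial counterparts and the others were added during the evolution of mitochondria. Symbols do not always give the position: MRPS30 and MRPS18A sit in the large subunit, and MRPS36 is known as a subunit of the 2-oxoglutarate dehydrogenase complex.

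The lines carried their markers. ERBB2 lay at 744 RPKM in hypoxia and 615 RPKM in normoxia in SKBR3, against 5.3 to 8.8 RPKM in the other lines, and PGR at 9.94 RPKM or more in T47D, against at most 0.0282 RPKM elsewhere. VIM stood at 1161 RPKM in hypoxia and 408 RPKM in normoxia in SUM1315, against 5.0 to 9.2 RPKM in the luminal lines. PTPRC and PECAM1, markers of leukocytes and endothelium, did not exceed 0.00773 RPKM in any library, and CD3E did not exceed 0.0952 RPKM. COL1A1 (119 RPKM in hypoxia, 91.7 RPKM in normoxia) and CD68 (44.3 and 45.6 RPKM) were highest in SUM1315. The hypoxia target SLC2A1 rose by 2.46 on the log2 scale (limma, adjusted p = 1.9e-05). RPKM counts reads per kilobase relative to library size, and 1 RPKM stood for 21.7 to 33.4 reads per kilobase.

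The sequence at the transcription start separates these genes from those of the cytosolic ribosome. mRNAs of cytosolic ribosomal proteins are known for starting with a C followed by a run of pyrimidines, the terminal oligopyrimidine motif through which mTORC1 controls their translation. Of 71 mitochondrial ribosomal protein genes with a RefSeq promoter, 6 (8.45%) had a C followed by at least 4 further pyrimidines at an annotated start, against 46 of 63 cytosolic ribosomal protein genes (73.0%) and 7.93% of 7961 tested genes. Starts of 3 members and of 3 cytosolic ribosomal protein genes show the difference, with the first 5 bases of the transcript in capitals (RefSeq, GRCh38.p14).
MRPL3, chr3:131502957-131502981, minus strand: tctttccgtcGCAGAgagcatcggc
MRPL12, chr17:81703357-81703381, plus strand: cggctagagcGTCATttccggctcg
MRPL41, chr9:137551869-137551893, plus strand: aatcggagccGCTCTtgctgcgacg
RPL26, chr17:8383179-8383203, minus strand: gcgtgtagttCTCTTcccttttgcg
RPL27A, chr11:8682782-8682806, plus strand: gaaggccttcCTTTTtcgtctgggc
RPS18, chr6:33272065-33272089, plus strand: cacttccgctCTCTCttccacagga

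Around the start, another motif was more frequent than in other genes. AAGATGGC, the core of the site bound by the transcription factor YY1, was searched on both strands from 250 bases before to 50 bases after the start and lay in 21 of 71 members (29.6%), against 7.35% of tested genes and 6 of 63 cytosolic ribosomal protein genes. In 17 of the 21 members it read in the direction of the transcript, in 16 of these after the start, and in 13 the ATG within it was an annotated start codon. In members the match therefore often lay where transcription factor site and start codon share letters. Its position was not counted in other genes. These windows show such genes, with the match in capitals.
MRPL38, chr17:75904860-75904889, minus strand: aggccggagggAAGATGGCggcgccctggt
MRPL45, chr17:38297170-38297199, plus strand: tttgcgggaacAAGATGGCagcccccatac
MRPL46, chr15:88467362-88467391, minus strand: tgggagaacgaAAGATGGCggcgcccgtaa
MRPS7, chr17:75261887-75261916, plus strand: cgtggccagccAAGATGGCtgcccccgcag
MRPS18A, chr6:43687764-43687793, minus strand: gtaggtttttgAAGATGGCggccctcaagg
MRPS30, chr5:44808949-44808978, plus strand: aatcgcgggcaAAGATGGCggcggccaggt
The ETS core CCGGAAG lay in 30 members (42.3%), against 24.9% of tested genes. The letters ACGTG, the core bound by HIF, lay in 25 members (35.2%), against 33.7% of tested genes. A match of letters is not evidence of binding.

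Polysome-associated mRNAs of the mitochondrial ribosome were abundant in every library. The median member averaged 43.9 RPKM over the 6 libraries, against 6.30 RPKM for the median tested gene, and 78 of 79 lay above that of the median tested gene. MRPL41 (517 RPKM) and MRPL12 (381 RPKM) were the highest of the large subunit, and MRPS34 (332 RPKM) was the highest of the small subunit. MRPS30 (4.90 RPKM), MRPS5 (6.34 RPKM), MRPL42 (6.62 RPKM) and MRPS31 (6.74 RPKM) were the lowest. MRPL12 forms the flexible stalk that recruits translation factors and is present in several copies per particle. The highest and the lowest mean differed 105.5-fold per length. Summed RPKM of the large subunit was 1.92 to 2.38 times that of the small subunit in all 6 libraries, but these sums run over 49 and 30 genes. The medians per gene were closer, from 33.8 against 21.7 RPKM in SUM1315 hypoxia to 43.0 against 40.0 RPKM in SKBR3 normoxia.

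Under hypoxia the group as a whole lay slightly lower. Of 79 members, 66 had a fitted difference below 0, against 50.8% of all tested genes, and the median difference was -0.25 on the log2(RPKM + 1) scale, against -0.01 over all 10253 tested genes. Members are more abundant and shorter than the median tested gene. Over 9440 tested genes with a coding length, the fitted difference correlated with level at -0.19 and with coding length at 0.16 (Spearman rho). Within the coding lengths of the members (4865 genes) these were -0.09 and -0.16, and over the 79 members 0.11 and -0.37. Genes of like level and length were not compared, so the part of either in the shift was not tested. 1 member, MRPL15, passed the test with an adjusted p under 0.05, and none was higher. Over all tested genes 6.38% passed, 4.12% higher and 2.26% lower, so the share of members called (1 of 79) was not above the background. At an unadjusted p under 0.05, 22 members stood out, 21 lower and MRPL33 higher, where 26.3% of all tested genes reached that level. The members' 95% intervals had a median width of 0.34 to either side, and 65 of 79 lay within 0.75 of 0. The cytosolic ribosomal proteins gave 31 lower of 78 and a median of -0.56.

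**Figure D1:**
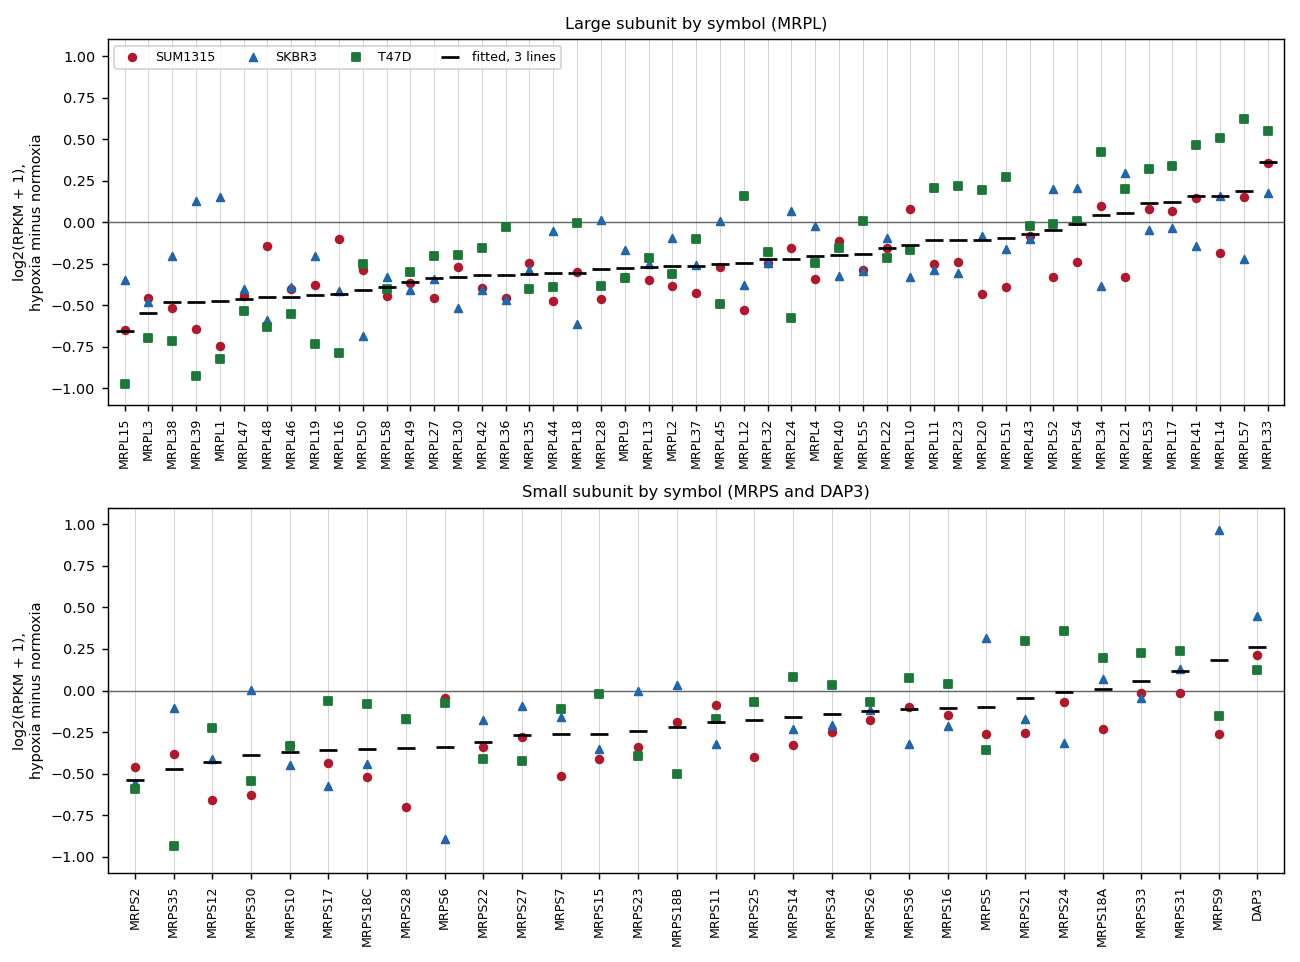
Difference in log2(RPKM + 1), hypoxia minus normoxia, for each member, ordered by the fitted difference within the large subunit (upper) and the small subunit (lower). Each point compares 1 library with 1 library of the same line and black dashes are the limma estimate over 3 lines; 66 of 79 dashes lie below 0.

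MRPL15, a core large-subunit protein with a bacterial counterpart (ENSG00000137547.8, chromosome 8, 54135210 to 54147901, plus strand, GRCh38), had 53.8 RPKM in hypoxia and 84.8 RPKM in normoxia in SUM1315, 47.3 and 60.3 RPKM in SKBR3, and 41.8 and 83.1 RPKM in T47D. Every hypoxia value lay below every normoxia value. It averaged 47.6 ± 5.98 RPKM in hypoxia and 76.1 ± 13.7 RPKM in normoxia (SD, n = 3 lines), a difference of -0.66 ± 0.17 on the log2 scale (SE, limma, adjusted p = 0.0478). The call lay at the edge of the threshold. It was lost without SUM1315 (adjusted p = 0.105) and without T47D (adjusted p = 0.194), with a pseudocount of 5 (adjusted p = 0.073), under median or quantile scaling (adjusted p = 0.0616 and 0.0724), with no filter (adjusted p = 0.441) and with no block for line (adjusted p = 0.9999). The difference lay between -0.81 and -0.50 in each of these fits and in that without SKBR3.

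MRPL3 and MRPS2 came next. MRPL3, which lines the region near the peptidyl transferase centre, had 115, 44.5 and 55.5 RPKM in hypoxia and 158, 62.6 and 90.6 RPKM in normoxia in SUM1315, SKBR3 and T47D. It was lower in each line, but the 2 oxygen levels overlapped because SUM1315 carried more of it than the luminal lines at both levels. Its difference of -0.55 ± 0.15 did not pass (SE, limma, adjusted p = 0.0597). MRPS2, a small-subunit protein with a bacterial counterpart, had 52.1, 35.4 and 41.1 RPKM in hypoxia and 72.1, 52.6 and 62.5 RPKM in normoxia in the same lines. Here the levels did not overlap, and the difference of -0.54 ± 0.15 did not pass either (SE, limma, adjusted p = 0.0581). Both passed when genes had to reach 1 RPKM in all 6 libraries (adjusted p = 0.0337 for MRPL3 and 0.0319 for MRPS2). MRPL38 (-0.48), MRPL39 (-0.48), MRPS35 (-0.47) and MRPL1 (-0.47), the protein of the L1 stalk where spent tRNA leaves, followed with adjusted p of 0.098 to 0.169.

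At the other end stood MRPL33 and DAP3. MRPL33, a short large-subunit protein, had 22.2, 26.0 and 23.7 RPKM in hypoxia and 17.1, 22.9 and 15.9 RPKM in normoxia in SUM1315, SKBR3 and T47D. DAP3, the GTP-binding protein of the small subunit that was first described in cell death, had 10.2, 18.1 and 20.9 RPKM in hypoxia and 8.69, 13.0 and 19.1 RPKM in normoxia. These were the only members above 0 in all 3 lines, where 23.5% of tested genes were, with differences of 0.36 ± 0.15 and 0.26 ± 0.15 that did not pass (SE, limma, adjusted p = 0.164 and 0.279). Exons of DAP3 overlap YY1AP1 on the other strand and exons of MRPL33 overlap BABAM2 on the same strand, and the labels do not say how reads of such exons were assigned. Exons of 16 members overlap another gene on the same strand and those of 30 on the other strand, among them MRPS2, while MRPL15 and MRPL3 overlap none. MRPL57 (0.18), MRPS9 (0.18), MRPL14 (0.16) and MRPL41 (0.16) were the next highest, with no adjusted p below 0.536.

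**Figure D2:**
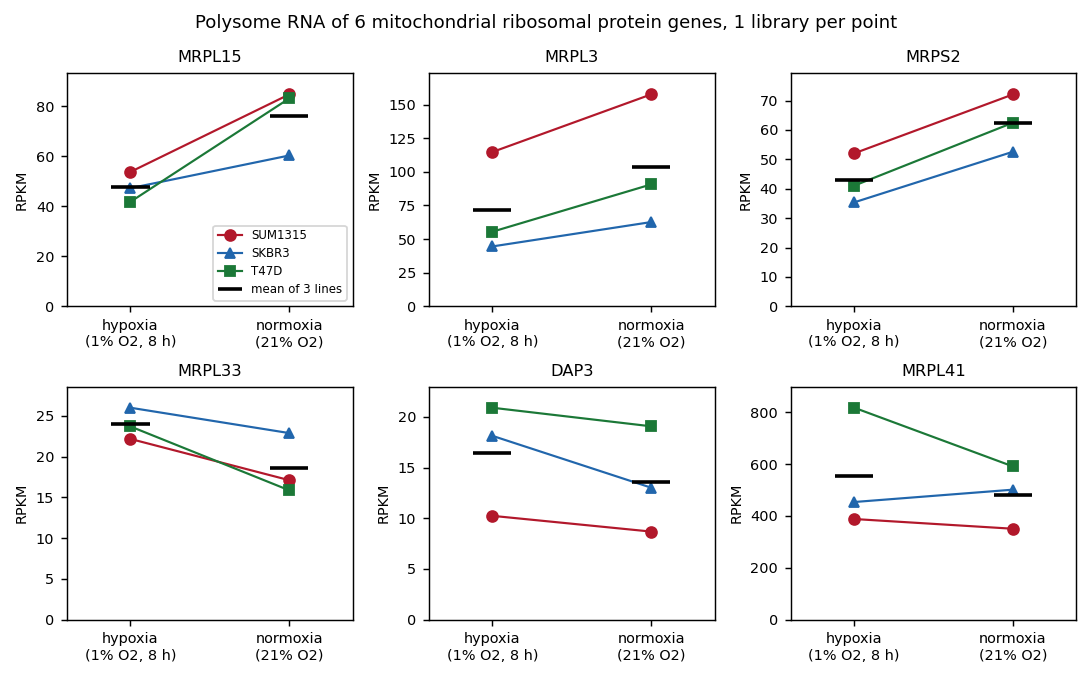
RPKM of 6 members in each library, hypoxia at the left and normoxia at the right, with a line joining the libraries of each cell line and a black bar at the mean of 3 lines. MRPL15, MRPL3 and MRPS2 are lower in hypoxia in each line, MRPL33 and DAP3 are higher in each line, and MRPL41 is lower in SKBR3 (454 against 502 RPKM) and higher in SUM1315 and T47D.

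Both subunits had medians below 0. The median difference was -0.26 over 49 large-subunit genes, of which 41 lay below 0. It was -0.21 over 30 small-subunit genes, of which 25 lay below 0, where 50.8% of all tested genes did. With MRPS30 and MRPS18A counted in the large subunit and MRPS36 left out, the medians were -0.26 and -0.22. Within the lines, the large-subunit median lay below that of the small subunit by 0.056 in SUM1315, 0.078 in SKBR3 and 0.118 in T47D. This difference between the subunits was not tested. Proteins listed with a bacterial counterpart and those listed as particular to mitochondria also had medians below 0. The latter lists hold MRPS18A, MRPS18B and MRPL58, although MRPS18C, a paralog of MRPS18A and MRPS18B, is listed with a counterpart. In the large subunit the medians were -0.26 over 30 genes listed with a counterpart (1 lower) and -0.26 over 21 listed as particular to mitochondria (0 called). At an unadjusted p under 0.05 were 8 and 9 of them. In the small subunit the medians were -0.26 over 16 genes and -0.18 over 11 genes, with 0 called in each, while 4 and 1 of them reached an unadjusted p under 0.05. Over all tested genes 26.3% reached that level, and 6.38% were called, 4.12% higher and 2.26% lower.

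Genes singled out for their role in the particle followed the same range. MRPL12 had 149 RPKM in hypoxia and 215 RPKM in normoxia in SUM1315 and 507 and 657 RPKM in SKBR3, but 401 and 360 RPKM in T47D, and its fitted difference was -0.25 (limma, adjusted p = 0.379). MRPL10 and MRPL11, which anchor and flank the stalk, differed by -0.14 and -0.11. MRPL45, at the exit of the peptide tunnel near the inner membrane, differed by -0.25, and MRPL58, a peptidyl-tRNA hydrolase known as ICT1 that also sits in the ribosome, by -0.39. MRPL58 was lower in each line, at 54.2, 80.7 and 115 RPKM in hypoxia against 74.3, 102 and 152 RPKM in normoxia in SUM1315, SKBR3 and T47D (limma, adjusted p = 0.133). MRPS12, the decoding-site protein, differed by -0.43 (adjusted p = 0.122). Of the 3 MRPS18 paralogs, MRPS18C differed by -0.35, MRPS18B by -0.22 and MRPS18A by 0.01, none of which passed (limma, adjusted p = 0.182, 0.413 and 0.969).

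The median lay below 0 in each line, and the ratios of single genes in SKBR3 were only weakly related to those in the other lines. The median log2 ratio of the 79 members was -0.30 in SUM1315, -0.21 in SKBR3 and -0.16 in T47D, with 71, 62 and 54 members below 0, where 49.1%, 56.1% and 46.8% of tested genes were. Below 0 in all 3 lines were 43 members (54.4%), against 25.2% of tested genes. The ratios correlated at r = 0.57 between SUM1315 and T47D, but at 0.13 between SUM1315 and SKBR3 and 0.11 between SKBR3 and T47D (79 members, which share libraries), against 0.60, 0.45 and 0.49 over all tested genes. In 7 members the ratio passed 0.25 in opposite directions in different lines, where 8.10% of tested genes did. Summed RPKM of the members was 3514 in hypoxia and 4264 in normoxia in SUM1315, 5304 and 6134 in SKBR3, and 5894 and 5967 in T47D. In T47D the small summed difference went with abundant genes such as MRPL41 (818 RPKM in hypoxia, 591 RPKM in normoxia) and MRPL14 (216 and 151 RPKM) that were higher there.

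In T47D the ratio of the members went with the length of their coding sequence. The correlation of the T47D log2 ratio with the log2 of coding length was -0.65 over 79 members, while it was -0.36 in SUM1315 and 0.28 in SKBR3. Over 4865 tested genes in the same length range (195 to 1317 bases) it was -0.33 in T47D and 0.01 in both SUM1315 and SKBR3. The 40 members of 588 bases or more had a median T47D ratio of -0.39, with 34 below 0, and the 39 shorter ones a median of 0.00, with 20 below 0. In SUM1315 the medians of the longer and shorter genes were -0.34 and -0.26, and in SKBR3 they were -0.14 and -0.25. The gap between longer and shorter genes was widest in T47D, and its difference between lines was not tested. MRPL15 (888 bases), MRPL39 (1014 bases) and MRPS35 (969 bases) had T47D ratios of -0.97, -0.92 and -0.94, and MRPL33 (195 bases) and MRPL57 (306 bases) had 0.55 and 0.62. The median member is 588 bases long, against 1272 bases for the median tested gene. Each ratio compares 1 pair of libraries, and the part of RNA length, depth or library preparation in the relation was not tested.

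**Figure D3:**
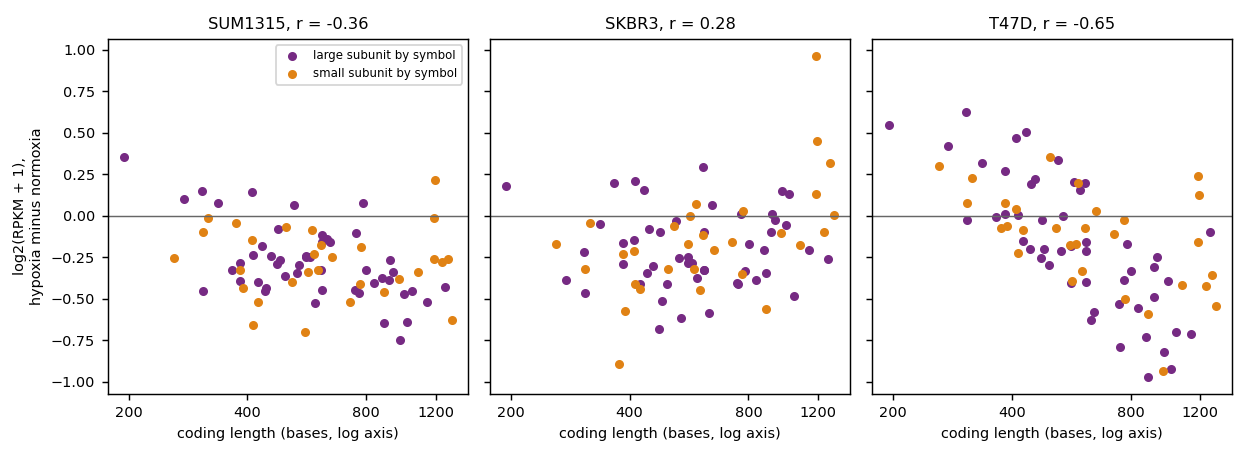
Difference in log2(RPKM + 1), hypoxia minus normoxia, within each line against coding length (log axis) for 79 members, coloured by subunit. In T47D the longer members lie lower (r = -0.65), in SUM1315 less so (r = -0.36), and in SKBR3 the slope is the other way (r = 0.28).

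The other genes of mitochondrial translation were measured beside the ribosomal proteins. Over all tested genes, 6.38% were called at adjusted p under 0.05, 4.12% higher and 2.26% lower. The 4 mitoribosomal proteins with other symbols, CHCHD1, AURKAIP1, PTCD3 and GADD45GIP1, differed by 0.14, -0.12, 0.04 and -0.01, with 0 called and none at an unadjusted p under 0.05. The rRNAs MT-RNR1 and MT-RNR2 differed by 0.33 and 0.26 (limma, adjusted p = 0.316 and 0.418). Of 16 translation factors, 1 rose and 1 fell at adjusted p under 0.05. LRPPRC, which binds and stabilises mitochondrial mRNAs, rose by 1.05 ± 0.16 (SE, limma, adjusted p = 0.00807), with 8.18, 10.2 and 3.83 RPKM in hypoxia and 4.49, 3.02 and 1.51 RPKM in normoxia in SUM1315, SKBR3 and T47D. TACO1, the translational activator of cytochrome oxidase subunit I, fell by 0.76 (adjusted p = 0.0252), with 21.5, 25.4 and 21.9 RPKM in hypoxia and 29.8, 47.5 and 43.6 RPKM in normoxia. The other extremes of this list, TSFM (-0.48) and GFM1 (0.27), did not pass. Of 24 tested genes of assembly and rRNA modification, 1 fell, MPV17L2, an assembly factor of the inner membrane, by 0.90 (adjusted p = 0.0163), with 15.5, 8.36 and 11.6 RPKM in hypoxia and 26.6, 22.1 and 18.8 RPKM in normoxia. MTERF3 (-0.55), TFB1M (0.31) and NOA1 (0.23) did not pass, and the list's median was -0.24. Of 19 tested genes of mitochondrial transcription and RNA processing, 0 were called at adjusted p under 0.05. An unadjusted p under 0.05 was reached by 5 of them, where 26.3% of all tested genes did. Their median was -0.20, with TFAM (-0.54, limma, adjusted p = 0.0566) and TEFM (-0.43) lowest and ELAC2 (0.16) and POLRMT (0.13) highest.

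Levels of the members differed between cell lines. The SD of a member's mean log2 level over 3 lines had a median of 0.48. The median size of its hypoxia log2 ratio was 0.28, but this is an unlike measure, so the sizes cannot be set against each other. SUM1315 had the lowest level of 44 members and T47D the highest level of 35, but such counts were not made over all tested genes. Between SUM1315 and the mean of the luminal lines, 38 members were lower and 13 higher at adjusted p under 0.05, where 29.1% of tested genes were lower and 42.5% higher. The median difference of the members was -0.37, against 0.19 over all genes. When each library was scaled to its own median gene, these were -0.61 and 0.01, and 7 members were higher. These line contrasts use 2 libraries a line, 1 per oxygen level, and describe these cultures.

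MRPS28 set SUM1315 furthest apart. This small-subunit protein had 6.18 RPKM in hypoxia and 10.7 RPKM in normoxia in SUM1315, against 114 and 129 RPKM in SKBR3 and 26.4 and 29.9 RPKM in T47D. The 3 lines did not overlap, and the difference of SUM1315 from the luminal lines was -2.71 ± 0.17 (SE, limma, adjusted p = 4.083e-07). MRPL13 was ordered the same way, with 16.2 and 20.9 RPKM in SUM1315, 130 and 155 RPKM in SKBR3 and 35.8 and 41.7 RPKM in T47D in hypoxia and normoxia (-1.95 ± 0.16, adjusted p = 1.935e-06). MRPS14 (-1.88) and MRPL53 (-1.84) were the next lowest in SUM1315. MRPS31 was the highest there, with 14.3 and 14.5 RPKM in SUM1315, against 3.40 and 3.02 RPKM in SKBR3 and 2.89 and 2.30 RPKM in T47D (1.99 ± 0.14, adjusted p = 7.66e-07). MRPL52 (1.42), MRPL1 (1.32) and MRPL27 (1.13) followed.

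Between SKBR3 and T47D, 24 members were lower and 14 higher in SKBR3, where 31.2% and 26.6% of tested genes were. MRPL43 had 21.1 and 22.7 RPKM in SKBR3 in hypoxia and normoxia, against 81.2 and 82.6 RPKM in T47D (-1.86 ± 0.18, SE, limma, adjusted p = 1.7e-05). Exons of MRPL43 overlap SEMA4G and TWNK on the other strand. MRPS23 (-1.65), MRPL10 (-1.46) and MRPL27 (-1.39) were the next lowest in SKBR3, and MRPS28 (2.07), MRPL13 (1.85), MRPL51 (0.96) and MRPL35 (0.84) the highest. Among the extremes of both line contrasts, exons of MRPS28 and MRPL53 overlap AC036214.3 and CCDC142 on the same strand. Those of MRPL13, MRPS14 and MRPL51 overlap MTBP, CACYBP and NCAPD2 on the other strand. The remaining extremes named overlap none.

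**Figure D4:**
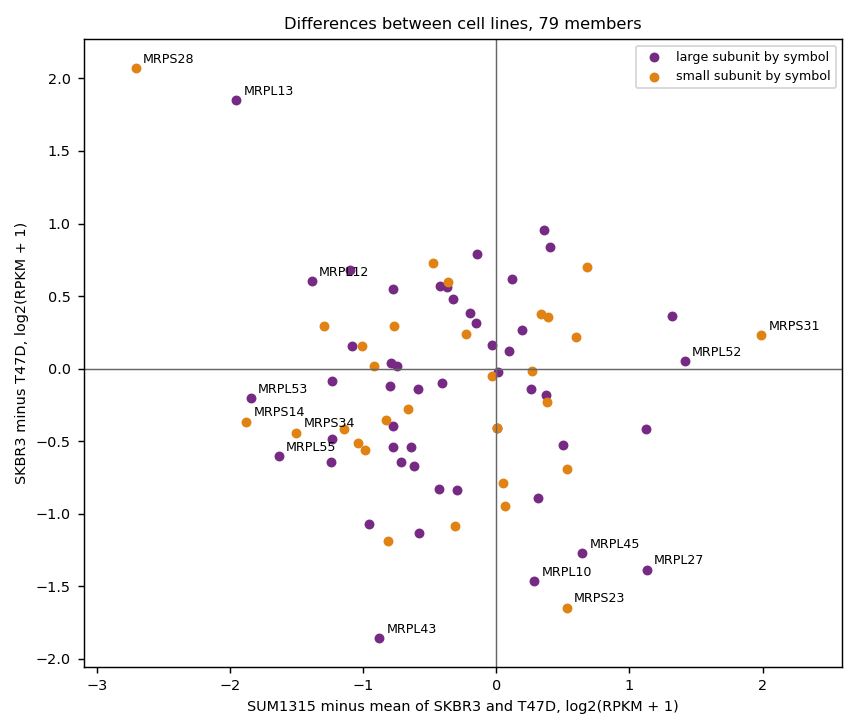
Difference in log2(RPKM + 1) between SUM1315 and the mean of the luminal lines (horizontal) and between SKBR3 and T47D (vertical) for 79 members, coloured by subunit, with the extreme members labelled. MRPS28 and MRPL13 lie at the upper left, low in SUM1315 and high in SKBR3, and MRPL45, MRPL10, MRPL27 and MRPS23 at the lower right.

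Differences between lines went with the position of the genes. MRPS28 (79918717 to 80030289) and MRPL13 (120380761 to 120445402) both lie on the long arm of chromosome 8, and the tested genes within 2 Mb of them had median SKBR3 minus T47D differences of 1.47 (10 genes, 4 below 0) and 1.88 (6 genes, 0 below 0). MRPL15, on the same chromosome, differed by -0.14 between SKBR3 and T47D, with a neighbour median of -0.40. On chromosome 17, MRPL45 (-1.27), MRPL10 (-1.46), MRPL27 (-1.39) and MRPS23 (-1.65) lie in this order along the long arm (38297023 to 57850056, GRCh38) and were all lower in SKBR3. Of their neighbours, 23 of 44, 27 of 32, 27 of 34 and 21 of 25 were below 0, where 52.45% of all tested genes were. The share near MRPL45 was thus that of the background, with a neighbour median of -0.18. Further along the chromosome, MRPL58 was also lower in SKBR3 (-0.54, limma, adjusted p = 0.0274), MRPL12 was higher (0.60, adjusted p = 0.0323), and MRPS7 (0.29) and MRPL38 (0.48) did not pass. Over all 79 members, the correlation of a member's difference with the median of its neighbours was 0.61 for SUM1315 minus luminal and 0.67 for SKBR3 minus T47D, against 0.31 and 0.38 over 9989 tested genes. For hypoxia minus normoxia it was -0.02, against 0.06. Neighbours of a member left out all members, while those of a tested gene left out only the gene itself. Members also have higher levels, and some share neighbours, such as MRPL46 and MRPS11. The correlations of members and of all tested genes are thus unlike measures. DNA copy number was not measured here.

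**Figure D5:**
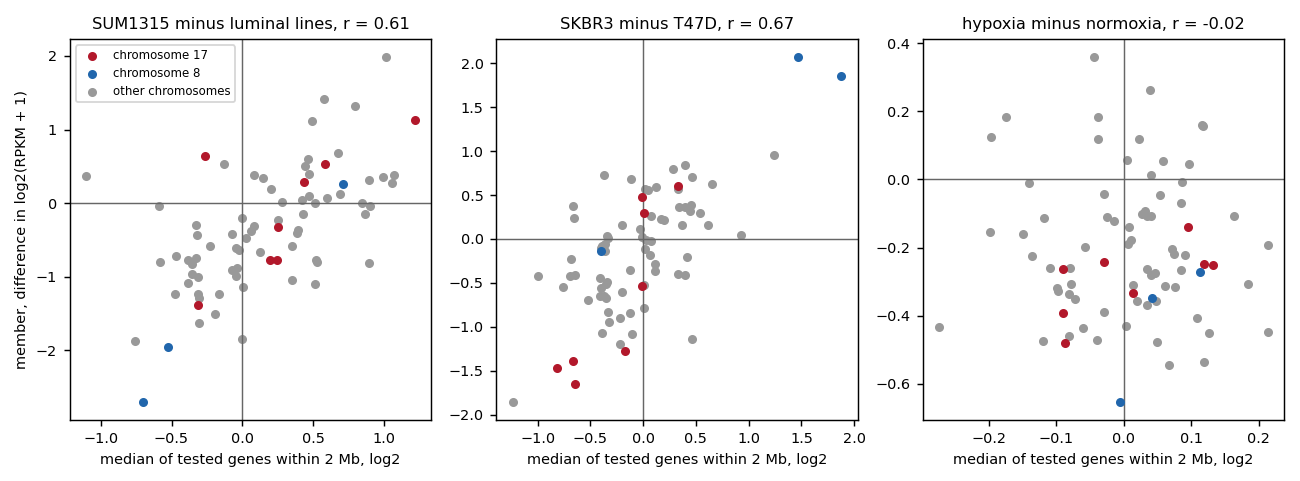
Difference of each member in log2(RPKM + 1) (vertical) against the median difference of tested genes within 2 Mb (horizontal) for the comparison of SUM1315 with the luminal lines, of SKBR3 with T47D, and of hypoxia with normoxia, with chromosomes 17 and 8 coloured. Members lie with their neighbours between lines (r = 0.61 and 0.67) and show no such relation in hypoxia (r = -0.02).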

How the data were processed

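Polysome RNA-seq of 6 libraries was analysed. GRCh38 (hg38) was the build, and Partek, SAMtools, HISAT2 and Trimmomatic were among the tools, per the submitters' processing notes. The values deposited by the authors were read as RPKM from the values themselves. In genes with 1 GENCODE transcript, 64.2% to 67.2% of low values per library were whole multiples of 1 read per length (tolerance 0.02 of a step). The step was chosen to give the highest share, and the 4% by chance holds only for a step fixed beforehand. Whole steps show scaling by length and depth and do not by themselves name the unit. On this reading, 3 reads on 1 kb stand for 0.0899 to 0.138 RPKM. These limits cover counting error only. Neither the counting annotation nor the strand handling is given in the sources used here.

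A gene was tested if 3 or more libraries reached 1 RPKM (10253 genes). Tests used limma 3.58.1 under R 4.3.3 on log2(RPKM + 1), with oxygen level and a block for line (eBayes with trend, two-sided, Benjamini-Hochberg over all tested genes). A change on this scale understates that of low genes. Pairing by line comes from the labels, and the hypoxia and normoxia deviations of each line correlated at 0.936 to 0.969 across genes. Nothing replicates a line, so SE and p rest on 3 pairs (2 residual and 8.02 prior degrees of freedom). Contrasts between lines came from the same fit. The fit was tested on simulated data.

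The members and gene lists were chosen with earlier results of these data known. Named members were those called, the 6 highest and 6 lowest in hypoxia, the 3 highest and 3 lowest of each subunit by level, the 4 highest and 4 lowest of each line contrast, and a panel of known roles; other lists name those called and the 2 highest and 2 lowest. Positions, lengths and overlaps are from GENCODE release 29, promoters from RefSeq (71 members matched). Alternatives were other pseudocounts, filters, scalings, no block, and leaving out lines or libraries.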

Additional observations from a re-analysis of the deposited data

Results flagged for a closer look

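Members whose log2 ratio of hypoxia to normoxia passed 0.25 upward in 1 line and downward in another numbered 7 of 79, a share near that of all tested genes (8.10%). Each ratio compares 1 library with 1 library, and the difference between lines was not tested. MRPS9 had 0.97 in SKBR3 (19.3 RPKM in hypoxia, 9.40 RPKM in normoxia) and -0.26 in SUM1315. MRPL21 had 0.29 in SKBR3 and -0.33 in SUM1315, and MRPS5 had 0.32 in SKBR3 and -0.36 in T47D. T47D was the higher line for the others: MRPL34 had 0.42 there and -0.39 in SKBR3, MRPS24 had 0.36 and -0.32 in SKBR3, MRPL51 had 0.27 and -0.39 in SUM1315, and MRPS21 had 0.30 and -0.26 in SUM1315.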

How the results depend on the processing

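The median hypoxia difference of the members stayed below 0 in each alternative run, and so did large minus small. The count of members lower in hypoxia, 1 as reported, was 0 with a pseudocount of 5, with no filter, with each library divided by its median, and with quantile normalization, 3 with a filter of 1 RPKM in all 6 libraries, and 0 to 4 without 1 line each (4 without SKBR3, 0 without SUM1315 or T47D). Without the replicate block 0 members and 0 of all genes were called, as differences between lines then entered the spread. With no filter 0 of all genes were called, and 243 with a pseudocount of 5 and 232 without T47D, against 654 as reported; the cause was not tested. Members higher in SKBR3 than T47D numbered 6 with no filter, against 14, and 8 to 13 without 1 library each. Members higher in SUM1315 than the luminal lines numbered 7 after median scaling, against 13, and 6 to 13 without 1 library each. For these line contrasts the share of all genes called in each alternative run is not given here. A loss among members thus cannot be told from a loss among all genes. No result reversed. With 3 pairs of libraries, single members at -0.55 (MRPL3) and -0.54 (MRPS2) did not pass the adjusted threshold, and MRPL15 at -0.66 did.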

Other observations

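Of 8 motifs searched, the letters of the NRF1 site (GCGCA, any base, GCGC) were in 9 of 71 promoters (12.7%, against 14.7% of tested genes). The fitted hypoxia difference lay below 0 in 3 of these 9 members, against 56 of 62 members without the letters, and the medians were 0.06 and -0.25. By line, the median log2 ratio of the 9 was -0.18 in SUM1315, -0.04 in SKBR3 and 0.23 in T47D, so it lay above 0 in T47D only. For the 62 others it was -0.33, -0.21 and -0.16. The 9 genes are MRPL14, MRPL17, MRPL30, MRPL34, MRPL36, MRPL45, MRPL57, MRPS9 and MRPS33. Their coding sequences were shorter (median 435 bases, against 609 bases), and the split was chosen after the values were seen, so no test is given.

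Related rows outside the members held little signal. The 10 pseudogene rows together carried 0.0213% to 0.109% of the RPKM of members and pseudogenes, while MRPL20-AS1, an antisense RNA, lay at 11.7 to 26.7 RPKM across the libraries.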
